A study of Mus musculus with 6 samples.

Results

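The patatin-like lipases and the enzymes that work with them to break down stored fat inside cells were followed in mouse liver with and without ChREBP. The set held 8 genes out of 18193 with a named probe set: Pnpla2, Pnpla3, Pnpla6, Pnpla7, Pnpla8, Abhd5, Lipe and Mgll. Members were found by symbol, taking every probe set annotated to 1 of these genes alone, which gave 16 probe sets out of 34945 with 1 gene symbol. Liver RNA came from 6 male mice, each on its own Affymetrix array, with 3 wild-type mice (WT) and 3 mice lacking ChREBP in the liver (ChLO). The ChLO mice were made by crossing a floxed Chrebp line with mice carrying Cre under the albumin promoter, a promoter active in hepatocytes, and Chrebp is named Mlxipl on the array. The labels do not say whether the WT mice carried floxed alleles or Cre. Both groups were 12 weeks old and ate a diet of 60% sucrose for 1 week, so no group on another diet stands beside them. The comparison asks how loss of hepatic ChREBP under a sucrose load changes the transcripts of these genes.

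Triglyceride in lipid droplets is taken apart in steps. Pnpla2 encodes ATGL, which removes the opening fatty acid and needs the coactivator encoded by Abhd5, while Lipe encodes hormone-sensitive lipase, which acts mainly on diacylglycerol, and Mgll encodes monoacylglycerol lipase, which frees the last fatty acid and also degrades the endocannabinoid 2-arachidonoylglycerol. Pnpla3 encodes adiponutrin, a droplet protein of liver whose gene is known to respond to feeding, insulin, SREBP-1c and ChREBP. The remaining patatin-like genes encode enzymes of phospholipids: Pnpla6 (neuropathy target esterase) and Pnpla7 release fatty acids from lysophosphatidylcholine, and Pnpla8 encodes a calcium-independent phospholipase of mitochondria and peroxisomes.

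Signals are log2 values, so a difference of 1 is a doubling. They compare a gene with itself between arrays, not one gene with another. The deleted gene, Mlxipl, read 12.61, 12.56 and 12.59 in WT 1, 2 and 3 and 10.34, 11.22 and 11.48 in ChLO 1, 2 and 3. Its difference, ChLO minus WT, was -1.57 (SE 0.28, limma adjusted p = 0.185), and no source used here places its probe set inside or outside the deleted part, so it is not a full check of the deletion. Array medians ran from 6.38 to 6.60, correlations between arrays from 0.894 to 0.954, and the 3′ minus 5′ signal of Actb, a sign of RNA integrity, from 0.84 to 1.46. ChLO 3 stood apart from ChLO 1 and ChLO 2 in many transcripts, and without it 302 of 12598 genes passed an adjusted p of 0.05 (2.4%).

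In ChLO livers, 6 of the 8 genes had a lower mean signal and 2 a higher one, or 4 and 4 once the arrays were scaled to their spike-in controls, an alternative chosen after seeing the data that turned Pnpla8 and Lipe. The lower signals of Pnpla3 (4.77-fold), Mgll (3.17-fold) and Pnpla7 (2.54-fold) were the widest differences of the set, while Pnpla2, Abhd5, Lipe and Pnpla8 differed by at most 1.26-fold. All 8 genes passed the filter on dim signals. None passed limma's test over all genes tested, where 0 of 12598 were called (0%) at an adjusted p of 0.05. At an unadjusted p under 0.05, 3 members were lower (Pnpla3, Pnpla7 and Mgll) and 0 higher, against 3.5% of all genes lower and 5.46% higher. For 3 members (Pnpla6, Pnpla7 and Mgll) every ChLO array lay below every WT array, against 6.19% of all genes, and for 0 members every ChLO array lay above (9.04%). With spike-in scaling, which raises the median difference of all genes from 0.06 to 0.31, only Pnpla7 of these 3 stayed separated, and Pnpla2 became separated upward. The median difference over the 8 members was -0.23, beside 0.06 over all genes tested, and 0.02 beside 0.31 with spike-in scaling. The members were chosen with earlier results of these arrays known, so these counts describe the set.

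**Figure D1:**
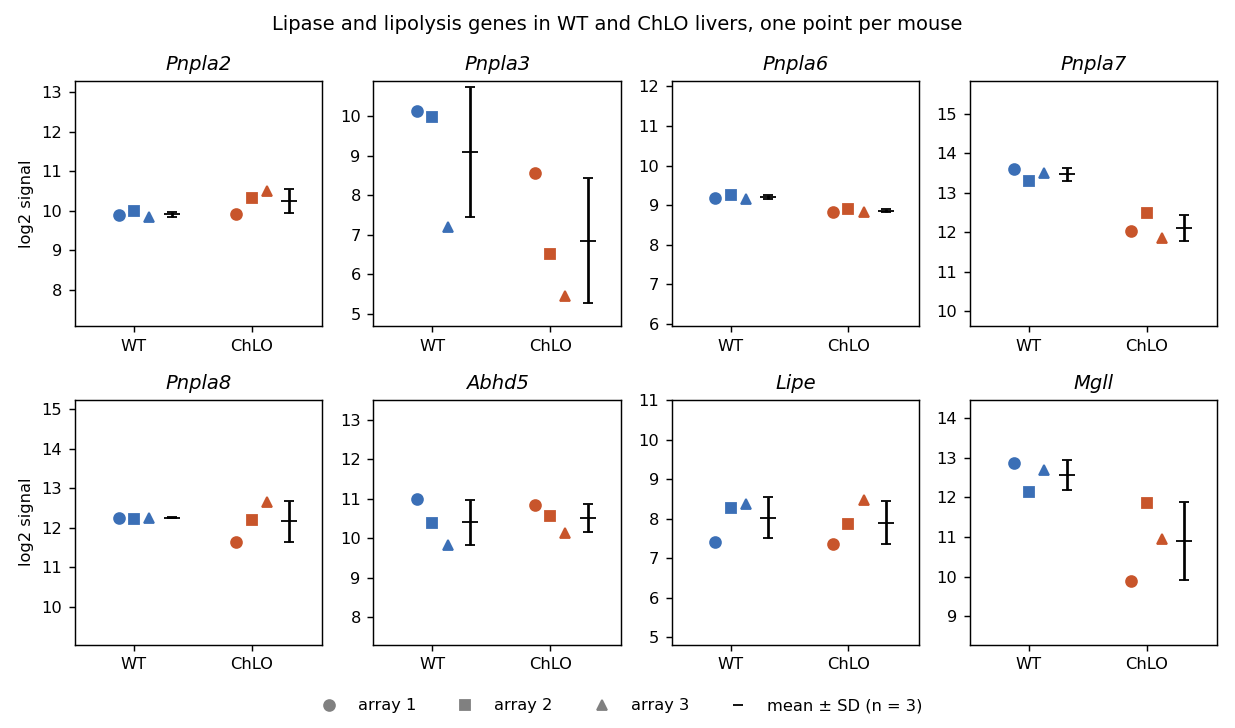
Log2 signal of each of the 8 genes on the 3 WT arrays (blue) and the 3 ChLO arrays (orange), with 1 point per mouse and the mean ± SD (n = 3) in black; every panel spans the same number of log2 units. The groups separate for Pnpla6, Pnpla7 and Mgll (with spike-in scaling for Pnpla7 and Pnpla2 instead), Pnpla3 spreads widely within both groups, and WT arrays of Pnpla8 lie within 0.03 of each other while its ChLO arrays run from 11.63 to 12.66.

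For the opening step of lipolysis, the Pnpla2 transcript did not pass limma's test. Pnpla2 read 9.89, 9.98 and 9.85 in WT 1, 2 and 3 and 9.91, 10.31 and 10.51 in ChLO 1, 2 and 3. ChLO 2 and ChLO 3 lay above every WT array and ChLO 1 lay among them. The means were 9.91 ± 0.07 in WT and 10.24 ± 0.31 in ChLO (SD, n = 3 each), which differ by 0.33 (SE 0.20, limma adjusted p = 0.636). Without ChLO 3 the difference was 0.20, without ChLO 1 it was 0.50, and with spike-in scaling it was 0.58, with every ChLO array above every WT array. A dimmer Pnpla2 probe set, below the filter, differed by 0.33 (SE 0.80).

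Abhd5, whose product switches ATGL on, read 10.98, 10.39 and 9.83 in WT and 10.84, 10.55 and 10.12 in ChLO. All ChLO arrays lay inside the WT range, and the difference was 0.10 (SE 0.31, limma adjusted p = 0.932), or -0.18 without WT 3 and 0.39 without WT 1. Its other probe set past the filter read 9.96, 9.69 and 9.29 in WT and 9.56, 9.31 and 9.44 in ChLO, a difference of -0.21 (SE 0.22), so the probe sets disagree in sign and neither difference exceeds its error. The Pnpla2 signal minus the Abhd5 signal in the same array, in which array scaling cancels, was -0.49 ± 0.56 in WT and -0.26 ± 0.66 in ChLO (SD, n = 3 each). That shift of 0.23 had an exact two-sided permutation p of 0.70, where 0.10 is the smallest p that 3 arrays against 3 allow, and it ran from -0.0931 without ChLO 3 to 0.57 without ChLO 1.

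G0s2 encodes the main protein inhibitor of ATGL in liver. It read 13.65, 13.01 and 13.07 in WT and 10.35, 12.32 and 13.82 in ChLO, so that ChLO 1 and ChLO 2 lay below every WT array and ChLO 3 above. The difference was -1.08 (SE 0.74, limma adjusted p = 0.671), and it was -1.91 without ChLO 3 and -0.18 without ChLO 1. Pnpla2 minus G0s2 within an array was -3.76, -3.03 and -3.22 in WT and -0.45, -2.01 and -3.31 in ChLO. That difference was higher in ChLO 1 and ChLO 2 than in any WT array and among the WT arrays in ChLO 3, with a shift of 1.42 and an exact permutation p of 0.30. The shift was 0.68 without ChLO 1 and 2.11 without ChLO 3. Hilpda, which encodes another inhibitor of ATGL, read 7.27, 5.96 and 7.21 in WT and 7.99, 8.67 and 6.63 in ChLO. The Hilpda difference was 0.95 (SE 0.58, limma adjusted p = 0.638), and it was 1.51 without ChLO 3, 0.49 without ChLO 2 and 0.52 without WT 2.

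With all 6 arrays Pnpla3 had the widest difference of the 8 genes, and its values spread widely within both groups; without WT 2, ChLO 2 or ChLO 3 the difference of Mgll (-1.88, -2.14 and -1.69) was wider than that of Pnpla3 (-1.82, -2.09 and -1.56). It read 10.12, 9.97 and 7.20 in WT and 8.56, 6.52 and 5.45 in ChLO. WT 3 lay below ChLO 1, so the groups overlap, and ChLO 3 lay just under the level of the filter, a mean log2 signal of 5.50. The means were 9.10 ± 1.64 in WT and 6.84 ± 1.58 in ChLO (SD, n = 3 each), which differ by -2.25 (SE 0.96, limma adjusted p = 0.549). It was -3.20 without WT 3, -3.11 without ChLO 1 and -1.56 without ChLO 3, and stayed below 0 under every alternative tried. Pnpla3 minus Pnpla2 within an array was spread in the same way, being 0.23, -0.01 and -2.65 in WT and -1.35, -3.79 and -5.06 in ChLO, with a shift of -2.59 and an exact permutation p of 0.20. Over the 3 such within-array comparisons the adjusted exact permutation p was 0.45 for Pnpla3 minus Pnpla2 and for Pnpla2 minus G0s2. For Pnpla2 minus Abhd5 it was 0.70.

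The low WT 3 and the high ChLO 1 of Pnpla3 were also seen in Fasn, fatty acid synthase, which read 12.87 in WT 3 and 12.94 in ChLO 1. Acly overlapped likewise, with 13.42 in WT 3 and 13.69 in ChLO 1. Srebf1, which encodes SREBP-1, showed no such overlap, with 13.17, 14.27 and 13.08 in WT and 12.52, 12.35 and 12.07 in ChLO. Pklr, liver pyruvate kinase and a textbook ChREBP target, did not overlap either, with 11.55 as its lowest WT value and 9.29 as its highest ChLO value. In Srebf1 and Pklr too, WT 3 was the lowest WT array and ChLO 1 the highest ChLO array. A list of 17 ChREBP and SREBP-1c targets, described below, was chosen with these results known. Of these, 13 had every ChLO array below every WT array, against 6.19% of all genes. With spike-in scaling it was 11. The 3 tested genes whose signal followed Pnpla3 most closely over the 6 arrays were Acsl5 (Pearson r = 0.993), an acyl-CoA synthetase, Tbc1d24 (0.989) and Rnpepl1 (0.982). Those nearest to Pnpla2 were Fam102a (0.995), Dclre1a (0.987) and Mkks (0.985). These coefficients are the highest of all genes tested over 6 arrays that share both genotypes, and are given as a description.

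Pnpla5, a close relative of Pnpla3, is its next protein-coding neighbour on chromosome 15 in RefSeq (GRCm38.p6). Its signal was 8.75, 9.59 and 7.92 in WT and 7.09, 4.90 and 6.79 in ChLO. No ChLO array reached the WT range, and the difference was -2.50 (SE 0.64, limma adjusted p = 0.404). It was -2.91 without ChLO 1 and -1.82 without ChLO 2, and with array weights it was -3.45 (limma adjusted p = 0.0253). Array weights called 568 of 12598 genes, and their fit stopped before full convergence. Unlike Pnpla3, Pnpla5 was lowest in ChLO 2 rather than ChLO 3. That ChLO 2 value (4.90) lay below the level of the filter, a mean log2 signal of 5.50.

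**Figure D2:**
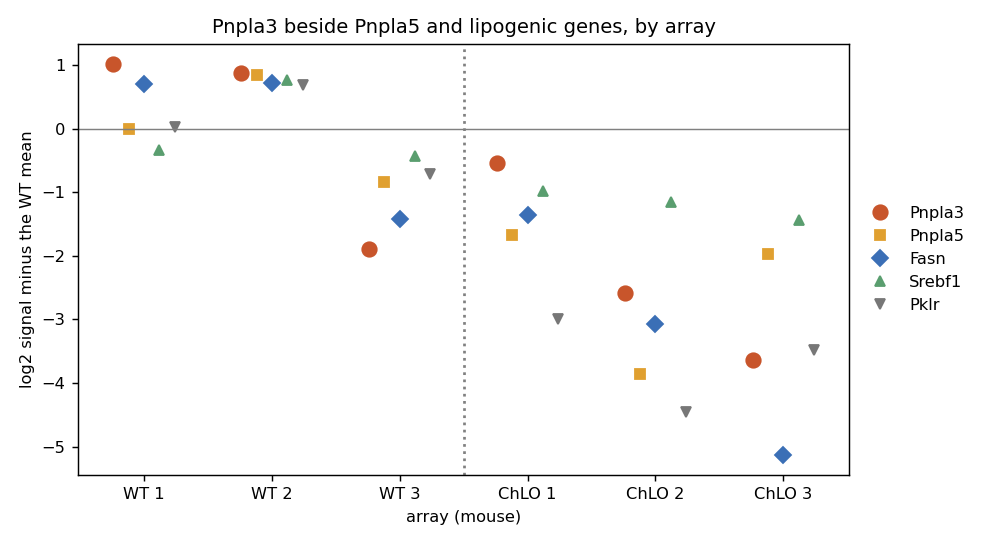
Log2 signal of Pnpla3, Pnpla5, Fasn, Srebf1 and Pklr on each of the 6 arrays, each gene minus its own WT mean; each point is 1 mouse, and the dotted line parts WT from ChLO. In WT 3, Pnpla3 (7.20) and Fasn (12.87) lie below their ChLO 1 values (8.56 and 12.94), whereas Pklr, Srebf1 and Pnpla5 are lower in every ChLO array than in every WT array.

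Hormone-sensitive lipase showed no difference beyond its error. Lipe read 7.42, 8.27 and 8.37 in WT and 7.36, 7.87 and 8.47 in ChLO, with WT 1 and ChLO 1 low alike. The difference was -0.12 (SE 0.38, limma adjusted p = 0.932), and its sign turned when WT 2, WT 3 or ChLO 1 was left out. The dim probe set of Lipe, below the filter, differed by -0.26 (SE 0.81). Lipe is best known from adipocytes. Of 10 adipocyte markers listed, 8 had a probe set of their own symbol, of which Adipoq, Lep, Adig, Cidea and Ucp1 lay below the filter and Fabp4, Retn and Slc2a4 passed it. Adipoq and Lep had means of 4.68 and 2.46 in WT and 4.11 and 3.97 in ChLO. Fabp4, also expressed by endothelium and macrophages, read 10.30, 10.06 and 9.64 in WT and 11.42, 11.47 and 10.63 in ChLO, so that every ChLO array lay above every WT array, and the part of adipocytes in the Lipe signal was not tested.

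Mgll, the last lipase of the sequence, was lower on every ChLO array than on any WT array, except that with spike-in scaling ChLO 2 (12.12) passed WT 2 (12.06). Its brightest probe set read 12.87, 12.14 and 12.69 in WT and 9.89, 11.86 and 10.95 in ChLO. ChLO 1 was the lowest, and ChLO 2 lay only 0.28 below WT 2. The means were 12.57 ± 0.38 in WT and 10.90 ± 0.99 in ChLO (SD, n = 3 each), which differ by -1.67 (SE 0.46, limma adjusted p = 0.431). It was -1.16 without ChLO 1, -2.14 without ChLO 2 and -0.96 with array weights, and no alternative brought it past the threshold. With spike-in scaling it was -1.42.

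The other Mgll probe sets gave like values. One read 12.33, 11.37 and 11.81 in WT and 9.46, 11.18 and 10.41 in ChLO, a difference of -1.49 (SE 0.43). Another read 12.18, 11.28 and 11.63 in WT and 9.36, 11.11 and 9.85 in ChLO, a difference of -1.59 (SE 0.44). These measure the same transcripts in the same RNA and are not independent of each other. A dim one below the filter differed by -1.13 (SE 0.87). The order of the mice in ChLO (ChLO 1 lowest, ChLO 2 highest) was the same at all 3 probe sets past the filter.

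**Figure D3:**
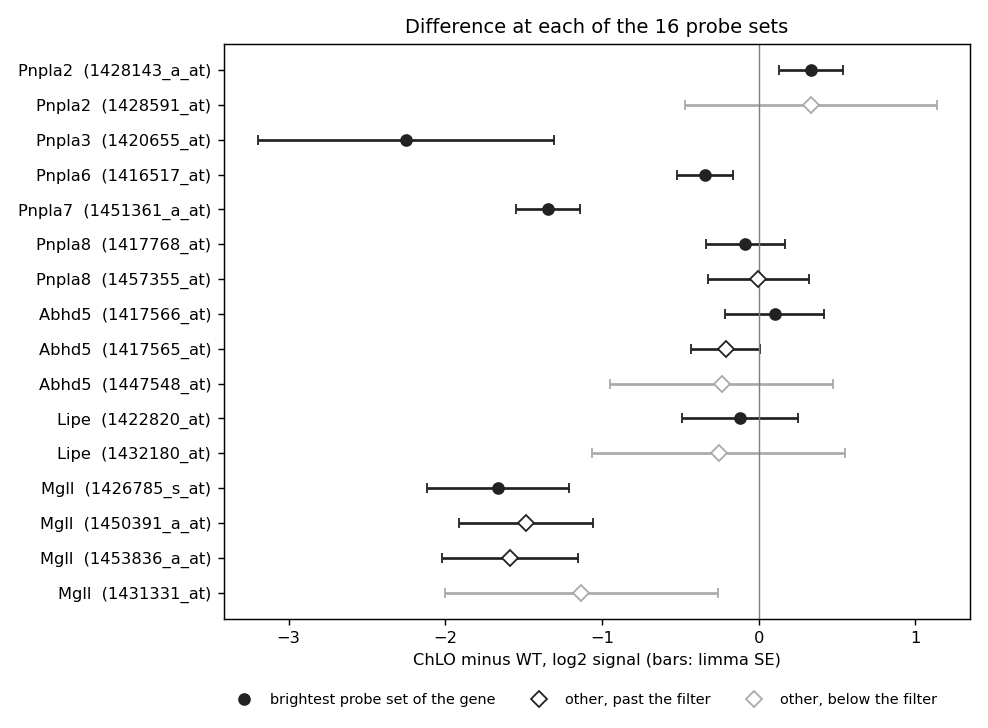
Difference in log2 signal, ChLO minus WT, at each of the 16 probe sets, with bars for the limma SE; filled circles mark the brightest probe set of each gene, open diamonds the others, and grey those below the filter. The Mgll probe sets lie between -1.67 and -1.13, Pnpla7 at -1.35 has a short error bar, Pnpla3 at -2.25 a long one, and the Abhd5 probe sets lie on both sides of 0.

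Of the lysophospholipases, Pnpla7 had the wider difference and Pnpla6 the smaller. Pnpla7 read 13.61, 13.29 and 13.49 in WT and 12.03, 12.49 and 11.85 in ChLO. In the deposited values the gap between the lowest WT array and the highest ChLO array was wider than the range within either group. With spike-in scaling that gap, from 12.74 (ChLO 2) to 13.21 (WT 2), was narrower than the ChLO range of 11.81 to 12.74. The means were 13.47 ± 0.16 in WT and 12.12 ± 0.33 in ChLO (SD, n = 3 each), which differ by -1.35 (SE 0.21). Pnpla7 ranked 22 among 12598 genes by limma's p, with an adjusted p of 0.115. With spike-in scaling its difference was -1.10 (SE 0.25, limma adjusted p = 0.275). The call depended on the setting, since the adjusted p was 0.0311 without ChLO 3, where the difference was -1.21, and 0.0239 with array weights, where it was -1.07. Leaving out ChLO 3 called 302 of the 12598 genes (2.4%). Array weights called 568 of them, with a fit that stopped before full convergence. With any other single array left out the adjusted p lay between 0.161 and 0.535.

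Pnpla6, the relative of Pnpla7 known from neurons, was measured with little spread and read 9.18, 9.25 and 9.15 in WT and 8.83, 8.90 and 8.83 in ChLO. Every ChLO array was below every WT array, except with spike-in scaling, where ChLO 2 (9.15) lay among the WT arrays. The difference was small, -0.34 (SE 0.17, limma adjusted p = 0.594), and -0.09 with spike-in scaling. Pnpla8 read 12.26, 12.23 and 12.26 in WT and 11.63, 12.20 and 12.66 in ChLO, with ChLO 1 and, by a small margin, ChLO 2 below all WT arrays and ChLO 3 above them. Its difference was -0.09 (SE 0.25, limma adjusted p = 0.928), and its dimmer probe set differed by -0.0028 (SE 0.32) with the same order of the ChLO arrays. The difference was 0.18 without ChLO 1.

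The bases upstream of Pnpla7, Mgll and Pnpla3 are shown because these were the members with the widest differences and ChREBP binds pairs of E-boxes, of which CACGTG is the plain form. They are RefSeq sequence of the plus strand, which is the strand of all 3 genes, in build GRCm38.p6, from chr2:24975783-24975989, chr6:88724162-88724411 and chr15:84167566-84167775, each ending at the base before the gene's annotated start. Capitals mark CACGTG.
Pnpla7: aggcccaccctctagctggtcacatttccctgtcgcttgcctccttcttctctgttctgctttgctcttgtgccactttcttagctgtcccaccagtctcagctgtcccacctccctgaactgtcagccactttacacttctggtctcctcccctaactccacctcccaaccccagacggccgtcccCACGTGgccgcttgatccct
Mgll: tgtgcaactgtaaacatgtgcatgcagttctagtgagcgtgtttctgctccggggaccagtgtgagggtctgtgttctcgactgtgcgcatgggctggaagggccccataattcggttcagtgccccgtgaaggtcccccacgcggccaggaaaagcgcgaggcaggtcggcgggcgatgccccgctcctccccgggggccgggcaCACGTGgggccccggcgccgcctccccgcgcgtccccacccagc
Pnpla3: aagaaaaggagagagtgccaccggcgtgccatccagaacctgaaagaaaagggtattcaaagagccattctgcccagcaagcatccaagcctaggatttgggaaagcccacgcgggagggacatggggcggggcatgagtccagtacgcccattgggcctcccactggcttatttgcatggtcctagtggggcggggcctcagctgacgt

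CACGTG begins 20 bases before the annotated start of Pnpla7 and 44 bases before that of Mgll. Counted from the promoter start sites used in the search below, these matches begin at -63 for Pnpla7 and -44 for Mgll. All 8 members had at least 1 promoter in the RefSeq table, 12 in all. Searched on both strands over the 250 bases before each start site, CACGTG was found in 3 of these 12 windows, belonging to Pnpla7, Mgll and Lipe, and in 6.02% of 32851 windows of all genes. A spaced pair in the loose form CANGNG and CNCNTG with 5 bases between them, which can overlap CACGTG, was found for 1 member, Abhd5, and in 0.454% of all windows. A match in these windows describes the letters and not a bound site, and whether a match goes with a difference was not tested.

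Genes that control lipolysis at the droplet surface lay on both sides of 0. Of 26 listed names, 21 had a probe set of their own symbol and 19 were tested. Of these, 11 were lower and 8 higher, and 0 passed limma's test. At an unadjusted p under 0.05, 1 was lower and 0 higher, against 3.5% and 5.46% of all genes. The median was -0.03, or 0.22 with spike-in scaling, where 7 were lower and 12 higher. That 1 gene was Cideb, a hepatocyte droplet and VLDL protein, which read 12.92, 12.66 and 12.61 in WT and 12.08, 12.15 and 12.46 in ChLO, a difference of -0.50 (SE 0.18, limma adjusted p = 0.498) that was -0.25 with spike-in scaling. The droplet coats Plin2 and Plin5 differed by 0.05 (SE 0.25) and -0.29 (SE 0.33), and the sign of each turned with an array left out (Plin2 to -0.09 without WT 2, Plin5 to 0.06 without WT 1). Vcp, an ATPase that extracts proteins from membranes, differed by -0.30 (SE 0.19), but by -0.14 without ChLO 3 and -0.05 with spike-in scaling. Cidec, which fuses droplets, ranged widely, from 7.35, 2.43 and 5.81 in WT to 7.30, 8.59 and 3.65 in ChLO, a difference of 1.31 (SE 1.54) that was -0.07 without WT 2.

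Among other neutral lipid hydrolases and the enzymes that rebuild glycerides, 14 of 21 tested genes were lower and 7 higher, and 0 passed. At an unadjusted p under 0.05, 5 were lower and 0 higher, against 3.5% and 5.46% of all genes. The median was -0.32, or -0.07 with spike-in scaling, where 11 were lower and 10 higher. Lpin1, a phosphatidate phosphatase, had the smallest p at -2.60 (SE 0.26, limma adjusted p = 0.0528), followed by Pnpla5 and by Ddhd2, a triglyceride and phospholipid hydrolase, which read 11.03, 10.68 and 10.28 in WT and 9.27, 9.72 and 10.08 in ChLO, a difference of -0.97 (SE 0.27, limma adjusted p = 0.441). Lipa, the acid lipase of lysosomes, differed by -0.48 (SE 0.29), but by -0.21 without ChLO 3, -0.27 without WT 1 and -0.23 with spike-in scaling. Dgat2, which makes triglyceride from diacylglycerol, differed by -0.64 (SE 0.30), but by -0.33 without ChLO 1 and -0.39 with spike-in scaling.

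Genes that turn over lysophospholipids and glycerophosphocholine, the substrates and product of Pnpla6 and Pnpla7, were spread about 0, with 12 of 22 lower, 10 higher, 0 passing and a median of -0.01, or 5 lower and 17 higher with spike-in scaling. At an unadjusted p under 0.05, 1 was lower and 1 higher, against 3.5% and 5.46% of all genes. Pla2g12a, a secreted phospholipase, read 7.96, 8.26 and 8.55 in WT and 9.22, 9.38 and 9.88 in ChLO, a difference of 1.24 (SE 0.26, limma adjusted p = 0.246). Pemt, which makes phosphatidylcholine from phosphatidylethanolamine, read 13.02, 13.09 and 12.91 in WT and 11.47, 12.35 and 12.84 in ChLO, a difference of -0.79 (SE 0.32, limma adjusted p = 0.538) that was -0.41 without ChLO 1. Lyplal1, a lysophospholipase-like enzyme outside the unadjusted threshold, differed by -0.42 (SE 0.19), but by -0.26 without ChLO 1 and -0.17 with spike-in scaling.

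ChREBP and SREBP-1c targets of fat synthesis, listed for comparison with Pnpla3, were lower for all 17 genes tested, with a median of -2.27. Of these, 15 had an unadjusted p under 0.05, against 3.5% of all genes lower at that level, and 0 passed the adjusted threshold. The list also holds Rgs16, Txnip, Slc2a2 and Insig2, which are not enzymes of fat synthesis. The list was chosen with these results known. The 3 with the smallest p were Rgs16 at -3.84 (SE 0.40), Pklr at -3.64 (SE 0.45) and Thrsp at -2.86 (SE 0.41). Genes of PPARalpha and fasting, which lipolysis by ATGL is known to feed with ligands, had 7 of 13 lower and 6 higher. Their median was -0.13 (0.12 with spike-in scaling). At an unadjusted p under 0.05 there were 0, against 3.5% of all genes lower and 5.46% higher. Their smallest p values were those of Igfbp1 at 0.55 (SE 0.28), Vnn1 at 0.75 (SE 0.43) and Cyp4a14 at 1.73 (SE 1.05). With 1 array left out, Igfbp1 ran from 0.30 (without WT 1) to 0.83 (without WT 2), Vnn1 from 0.41 (without ChLO 2) to 1.22 (without ChLO 1) and Cyp4a14 from 1.05 (without WT 2) to 2.88 (without WT 1).

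**Figure D4:**
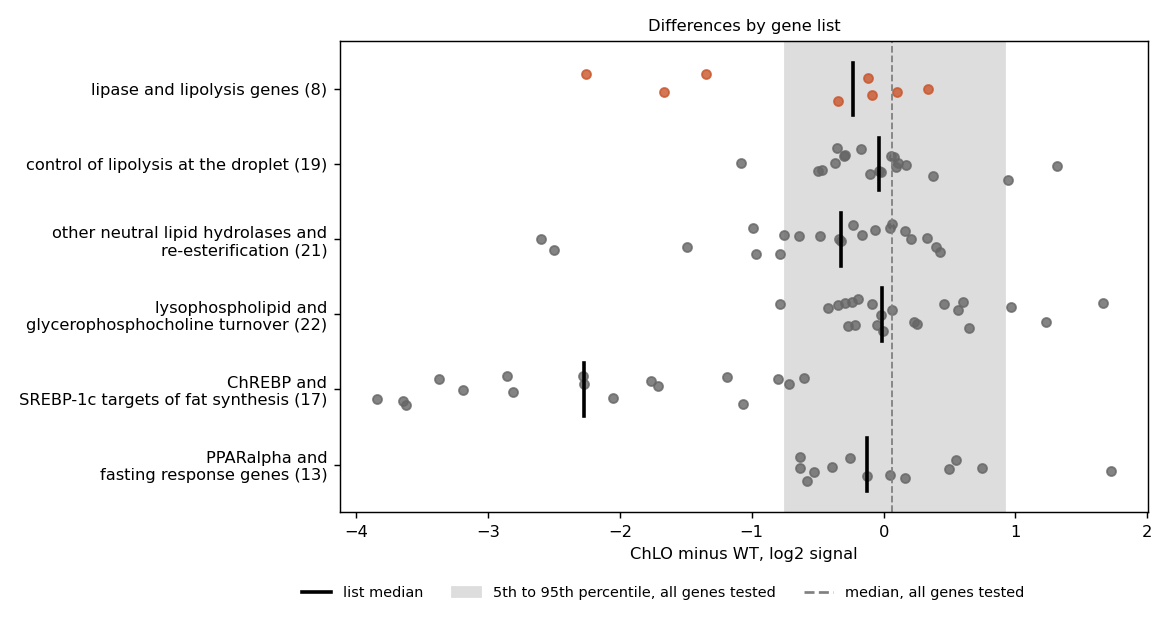
Differences in log2 signal, ChLO minus WT, of the 8 lipase and lipolysis genes (orange) and of the other gene lists (grey points, number tested in brackets), with a black bar at each list's median. The grey band spans the 5th to the 95th percentile of all 12598 genes tested, -0.75 to 0.92, and the dashed line is their median of 0.06; Pnpla3, Mgll and Pnpla7 lie to the left of the band and the other 5 members inside it.

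Markers of liver cell types were read as well, and 0 of them passed limma's test. Over all 12598 genes tested, 7121 were higher and 5477 lower. Hepatocyte markers were lower for 9 of 9 genes (6 with quantile normalization and 8 with spike-in scaling), with a median of -0.36 (-0.11 under either) and a mean log2 signal over the list of 15.06 to 15.27 in WT and 14.62 to 14.98 in ChLO. Stellate cell and fibroblast markers were higher for 10 of 10 genes, with a median of 1.02 and a mean signal of 8.52 to 9.10 in WT and 10.53, 10.64 and 8.30 in ChLO 1, 2 and 3. Macrophage and myeloid markers were higher for 6 of 8 (8.99 to 9.13 in WT and 8.70 to 9.94 in ChLO), cholangiocyte markers for 4 of 5 (5.29 to 6.15 in WT and 5.82 to 7.29 in ChLO) and endothelial markers for 5 of 8 (9.13 to 9.58 in WT and 9.23 to 9.80 in ChLO). Of the adipocyte markers tested, Fabp4 differed by 1.18 (SE 0.28, limma adjusted p = 0.325), while Slc2a4 and Retn differed by -0.67 (SE 0.48) and 0.13 (SE 1.10). Pnpla7 and Pnpla3 were at their lowest in ChLO 3. In that array the stellate list (8.30), the macrophage list (8.70) and the hepatocyte list (14.98) all read below every WT array. That hepatocyte value was the highest of the ChLO arrays, with 14.62 in ChLO 1 and 14.71 in ChLO 2. Mgll was 1.18 below the lowest WT array in ChLO 3 and at its lowest in ChLO 1 (9.89). In ChLO 1 the stellate list read 10.53 and the hepatocyte list 14.62. Fewer hepatocytes and less RNA per hepatocyte cannot be told apart in bulk tissue, and the part of cell composition in the lower signals was not tested.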

How the data were processed

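The authors deposited 1 table of log2 signals for 45101 probe sets on 6 arrays. They used MAS5, per the submitters' processing notes, which give no version of it. The log2 scale and the scaling were read from the deposited values: the linear signal of every array averages 500 after 2% is trimmed from each end. Depth has no counterpart on arrays, and 3 mice a group limit the precision.

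Control probe sets and those with a mean log2 signal below the 40th percentile (5.50) were left out, and each gene took its brightest remaining probe set, giving 12598 genes. ChLO and WT were compared with limma 3.58.1 in R 4.3.3 (mean-variance trend, no block), with p-values adjusted by Benjamini-Hochberg over all of them. Probe-set errors come from a fit over 27022 probe sets, or over all non-control ones for dim probe sets. The fit was tested on simulated data. The members and lists were chosen with earlier results of these data known. Named genes were the members, Mlxipl, 8 fixed pathway genes, the 3 smallest p in each pathway list, and Srebf1, Fasn and Pklr. The nearest 3 genes in pattern to Pnpla2 and to Pnpla3 were added. The deviations of same-numbered arrays correlated at r = 0.30, -0.17 and 0.06 for numbers 1, 2 and 3, and since not every pair passed 0.1, numbers were not taken as pairs.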

Additional observations from a re-analysis of the deposited data

How the results depend on the processing

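In all, 20 alternatives were tried, 1 of them, spike-in scaling, chosen after the data were seen. The count of genes called, 0, became 3 with no filter, 3 without probe sets of several transcripts, 1 with the replicate block, 6 with a floor of 32 on the linear signal, 14 at an adjusted p of 0.10, 8 with probe sets as the unit and 568 with array weights, whose fit stopped before full convergence. With 1 array left out it ran from 0 to 302 (4 without ChLO 1). The count of members called was 0, or 1 with array weights and 0 to 1 with an array left out; the same held for their probe sets. The 1 was Pnpla7, at -1.07 with array weights and -1.53 to -1.21 with an array left out (-1.21 without ChLO 3). The sign turned for Pnpla8 (0.16 with spike-in scaling, -0.33 to 0.18 with an array left out), Abhd5 (-0.0546 with the mean of its probe sets, -0.18 to 0.39), Lipe (0.13 with spike-in scaling, -0.42 to 0.15) and Pnpla2 minus Abhd5 (-0.0931 to 0.57). Among other named genes it turned for Mkks (-0.206) and Rnpepl1 (0.0145) with the mean of all probe sets, for Rnpepl1 with spike-in scaling (0.0291), and with an array left out for Plin2 (-0.0904 to 0.31), Plin5 (-0.47 to 0.0567) and Cidec (-0.0695 to 2.75). The cause was not tested. Pnpla2, Pnpla3, Pnpla6 and Mgll kept sign and side under each alternative run. With the replicate number as a block Pnpla3 had an adjusted p of 0.174 and no member was called.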

Other observations

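The genes here, other hydrolases and an acyltransferase of glycerides, were chosen after their values were seen, and each differed by less than Pnpla7, Mgll or Pnpla3. Aadac, a microsomal hydrolase linked to VLDL lipid, read 14.59, 14.58 and 14.62 in WT and 13.40, 13.96 and 14.16 in ChLO, a difference of -0.76 (SE 0.22, limma adjusted p = 0.451). Ces1f, a carboxylesterase, read 13.94, 13.85 and 14.07 in WT and 12.58, 12.90 and 14.03 in ChLO, so ChLO 3 lay within the WT range, and the difference was -0.78 (SE 0.35). Gpam, the mitochondrial acyltransferase that opens glycerolipid synthesis, read 14.41, 14.96 and 13.23 in WT and 13.67, 13.07 and 12.88 in ChLO, with WT 3 below ChLO 1 as for Pnpla3, and the difference was -0.99 (SE 0.43).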
